A study of Mus musculus with 24 samples.

Results

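The difference between Aim2-/- and wild type (WT) CD4+ T cells in their response to 3 h of T cell stimulation was measured by mRNA sequencing. Of the 24 libraries of the time course, the 12 taken at 0 h and 3 h were used, which came from the mice labelled WT 1, 3 and 4 and Aim2-/- 1, 2 and 4. All mice had a C57BL6 background, and the CD4+ T cells came from the spleen. Cells of each mouse were sequenced without stimulation (0 h) and after 3 h of culture with anti-CD3 and anti-CD28, which together give the receptor and the costimulatory signal of T cell activation. There were 3 libraries in each of the 4 groups of genotype and time. Per the general methods of the study, cells were enriched by immunomagnetic negative selection, so other cells can remain, the deficiency is not limited to T cells, and the WT mice were not stated to be littermates. Ages were not given. Each gene was given a response within a mouse, the log2 change from 0 h to 3 h, and the difference in response is the Aim2-/- response minus the WT response. A negative difference thus means a smaller rise or a deeper fall in Aim2-/- cells, and the 0 h level of a gene enters the difference as much as its 3 h level.

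AIM2 is a receptor for double-stranded DNA in the cytosol, known in myeloid cells for assembling the inflammasome with the adaptor ASC. Engagement of the T cell receptor and CD28 activates calcium and NFAT, MAP kinase and AP-1, and NF-kB signalling. These switch on immediate early genes first and then genes of cytokines, metabolism and growth, while genes of the resting state are shut off. Interferon gamma from activated T cells acts back on them through JAK-STAT signalling and the transcription factor IRF1, which induce guanylate-binding proteins (GBP) and immunity-related GTPases (IRG), families of GTPases that attack vacuoles of intracellular pathogens.

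The libraries held 20400995 to 21409678 counts, so that 3 counts, taken as the floor of detection, were about 0.144 CPM (counts scaled to a common, TMM-adjusted library total). The values of a gene are listed below in the order of mice WT 1, 3 and 4 and of mice Aim2-/- 1, 2 and 4. The targeted gene, Aim2 (ENSMUSG00000037860; chromosome 1, 173350879 to 173466040 on GRCm38), had 21.5, 74.7 and 66.98 CPM at 0 h in the mice labelled WT, against 15.7, 20.1 and 18.7 CPM in Aim2-/- mice. At 3 h its levels were 16.8, 51.9 and 53.6 CPM against 14.4, 15.04 and 14.8 CPM. At both times the mouse labelled WT 1 lay near the Aim2-/- mice and apart from mice WT 3 and WT 4, which goes against its label. Differences that moved by over 1.5 times without this mouse are followed by their value without it. Counts per gene do not show which exons carried the remaining Aim2 signal. Aim2 fell in both genotypes at 3 h (WT -0.40, adjusted p 0.00348, and Aim2-/- -0.29, adjusted p 0.0303, on the log2 scale), and the responses differed by 0.11 (SE 0.14, adjusted p 0.874), or by 0.17 without the mouse labelled WT 1.

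The defining markers of CD4 T cells were present in every library, with a summed level of 5593 to 5913 CPM in WT and 5922 to 6071 CPM in Aim2-/- libraries at 0 h, and 4619 to 5818 and 5162 to 5927 CPM at 3 h. Markers of other cells differed between the genotypes. The 15 B cell markers tested, of 18 listed, summed to 791 to 1833 CPM in WT and 8447 to 12954 CPM in Aim2-/- libraries at 0 h, and to 667 to 2181 and 5322 to 9877 CPM at 3 h, with the WT maximum at both times in the mouse labelled WT 1. The 16 myeloid markers tested, of 18 listed, summed to 61.8 to 93.7 and 175 to 555 CPM at 0 h and to 38.2 to 71.8 and 84.00 to 277 CPM at 3 h. Neither marker sum overlapped between the genotypes at either time. From bulk RNA, fewer cells of a type and less RNA per cell cannot be told apart, and the part of these other cells in the differences below was not tested. Some differences in response are also given from a fit with a marker score, which kept each mouse as a block. Such a score holds only the change of the markers from 0 h to 3 h within a mouse, which cannot be told apart from stimulation. These fits thus do not test the level of other cells.

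**Figure D1:**
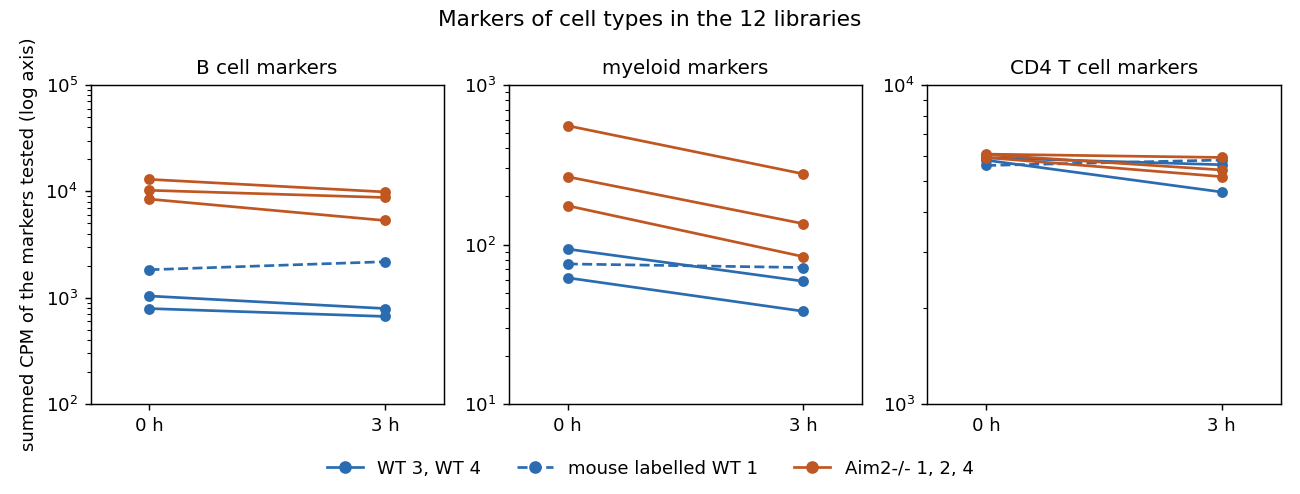
Summed level of cell type markers in CPM (vertical log axis) at 0 h and 3 h, with a line for each of the 6 mice, for B cell, myeloid and CD4 T cell markers. B cell and myeloid markers lie higher in every Aim2-/- mouse (orange) than in every mouse labelled WT (blue, dashed for WT 1), while CD4 T cell markers lie between 4619 and 6071 CPM in all libraries.

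No single gene passed the test of the difference in response after adjustment over all genes. By the lowest p and without overlap of the mice, the 12 leading genes with a lower response in Aim2-/- mice were the GTPase genes Irgm2, Igtp and Tgtp2, the transcription factor genes Irf1 and Maff, the cytokine and signalling genes Tnf, Il4ra and Pim2, and H2-T23, Tob2, Fn1 and Igkv15-103. Among 14276 genes tested with edgeR's quasi-likelihood test, 0 (0%) had an adjusted p under 0.05, and 1119 (7.84%) had an unadjusted p under 0.05. Of these, 731 (5.12% of the genes tested) had a lower and 388 (2.72%) a higher response in Aim2-/- mice. These shares are the background of the counts at this p for each list below. The numbers lower and higher were 626 and 482 with RLE in place of TMM scaling, and 568 and 521 with library totals only. With offsets for GC content and transcript length they were 561 and 649. The excess of lower responses thus depended on the normalization. DESeq2 called 41 genes and limma-voom 1. The responses of the 3 Aim2-/- mice all lay below those of the 3 WT mice for 1124 genes (7.87%) and all above for 809 genes (5.67%). Stimulation itself was called for 6278 genes in WT cells, of which 3274 rose (22.9%) and 3004 fell (21%), and for 6068 genes in Aim2-/- cells, of which 2955 rose (20.7%) and 3113 fell (21.8%). The leading genes are described below by their values, since none of their differences passed. Without the mouse labelled WT 1, 10 genes passed, all with a lower response in Aim2-/- mice, among them the GTPase genes Irgm2, Igtp, Gm12250 and Iigp1, the kinase gene Pim2, and Tnfsf8, Ccr4, Prnp and 9330175E14Rik. A fit of all 24 libraries of the time course with the same 6 mice as blocks called 9 of 15325 genes (0.0587%) at 3 h, again all lower, namely Irgm2, Igtp, Gm12250, Tgtp2, Irf1, Il4ra, Pim2, H2-T23 and Igkv15-103. Ccr4, Prnp and 9330175E14Rik are named only as members of these counts, after their values were seen.

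The side on which genes lay depended on the direction of their response. Of the 4141 genes that rose on average over the genotypes, 326 had an unadjusted p under 0.05 with a lower Aim2-/- response and 64 with a higher one. Of the 882 that rose by over 1 log2 unit the numbers were 125 and 12, with a median difference of -0.22, against -0.03 over all genes tested. Among the 3933 genes that fell on average, 180 were lower and 198 higher, with a median of 0.02. The 731 genes with lower values were of several kinds: 193 rose in both genotypes, 187 rose with a call in WT alone, 181 fell with a call in Aim2-/- alone, 76 fell in both, 5 rose in WT and fell in Aim2-/- cells, and 89 passed in neither. A call in a single genotype does not show that the genotypes differ, which is the test that none passed. Of the 388 genes with higher values, 112 fell in both genotypes, 122 fell with a call in WT alone and 73 rose with a call in Aim2-/- alone.

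The 0 h level went along with the difference. Aim2-/- cells had the higher mean at 0 h for 674 of the 731 genes with lower values (92.2%, against 48.1% of all genes tested) and the higher mean at 3 h for 331 of them (45.3%, against 44.4%). Of the 388 genes with higher values, Aim2-/- cells had the higher mean at 0 h for 37 (9.54%) and at 3 h for 263 (67.8%). Because the 0 h libraries are a part of the difference, this share at 0 h is a description of the genes and no separate result. Immunoglobulin genes made up 57 of the 731 and 1 of the 388, against 174 of all genes tested. The 731 genes had a median GC content of 52.1% and a median longest transcript of 2680 bases, the 388 genes 46.7% and 3530 bases, and all genes 49.5% and 3080 bases.

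**Figure D2:**
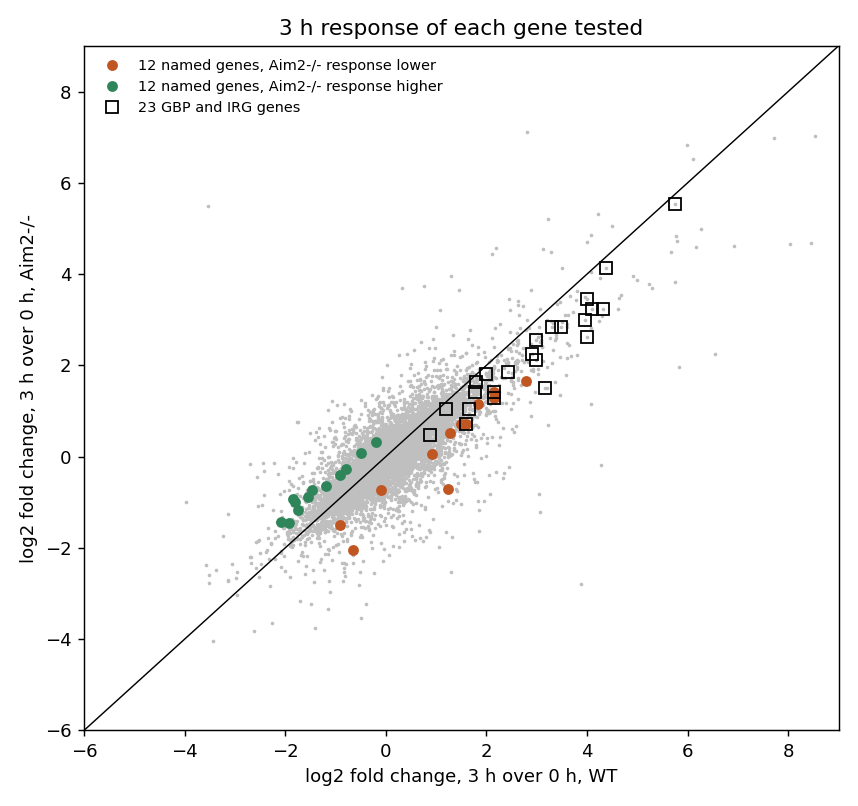
Log2 fold change from 0 h to 3 h of each of the 14276 genes tested, in WT cells (horizontal axis) and in Aim2-/- cells (vertical axis), with the line of equal response. The 12 leading genes with a lower Aim2-/- response (orange) lie below the line, the 12 with a higher one (green) above it, and all 23 GBP and IRG genes (squares) lie below it.

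The interferon-inducible GTPases had the lowest median difference of all lists. All 23 GBP and IRG genes were tested, 22 of them rose in WT cells and 22 in Aim2-/- cells, and all 23 had a lower fitted response in Aim2-/- mice. An unadjusted p under 0.05 was reached by 13 on the lower side (56.5%, against 5.12% of all genes) and by 0 on the higher side. This list and those below were chosen with earlier results of these data known. Their shares thus describe the lists and are no independent result. For 8 genes (background 7.87%) the responses of the 3 Aim2-/- mice all lay below those of the WT mice. The median response was 2.98 log2 units in WT and 2.13 in Aim2-/- cells, with a median difference of -0.61 against -0.03 over all genes. Mouse by mouse, the median response of the list was 2.29, 3.08 and 3.26 log2 units for the WT mice, against 1.93, 2.43 and 2.15 for the Aim2-/- mice, so that mouse Aim2-/- 2 lay above the mouse labelled WT 1. The median difference was -0.83 without the mouse labelled WT 1 and -0.50 without mouse WT 4. With a B cell marker score in the model it was -0.85 and with a myeloid score -0.91.

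The start sites of the 4 GTPase genes with the lowest p and of Irf1, whose product binds such promoters, lie on chromosome 11. Their 250 bases before the RefSeq start site (GRCm38.p6) are shown because the genes moved together. Capitals mark matches, on either strand, to GAAANNGAAA, the letters bound by IRF proteins, and to TTCNNNGAA, the letters bound by dimers of STAT proteins, and no bases are shared between the marked matches.
Irgm2, chr11:58214727-58214976, plus strand: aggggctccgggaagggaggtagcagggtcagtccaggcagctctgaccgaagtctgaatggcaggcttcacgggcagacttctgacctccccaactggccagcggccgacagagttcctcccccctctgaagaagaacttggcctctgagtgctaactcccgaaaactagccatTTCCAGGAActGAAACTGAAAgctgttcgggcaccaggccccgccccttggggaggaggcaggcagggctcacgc
Igtp, chr11:58199306-58199555, plus strand: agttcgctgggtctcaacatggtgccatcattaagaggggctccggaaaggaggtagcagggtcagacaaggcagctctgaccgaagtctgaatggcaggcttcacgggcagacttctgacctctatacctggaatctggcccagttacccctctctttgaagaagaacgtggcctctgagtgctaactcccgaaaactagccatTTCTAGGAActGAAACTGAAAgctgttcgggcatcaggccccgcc
Gm12250, chr11:58183593-58183842, plus strand: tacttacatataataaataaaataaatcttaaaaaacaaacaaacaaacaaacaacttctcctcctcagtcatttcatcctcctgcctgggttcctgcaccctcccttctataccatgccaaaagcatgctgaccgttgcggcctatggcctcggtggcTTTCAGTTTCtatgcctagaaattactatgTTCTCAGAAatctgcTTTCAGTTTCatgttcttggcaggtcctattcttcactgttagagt
Tgtp2, chr11:49064213-49064462, minus strand: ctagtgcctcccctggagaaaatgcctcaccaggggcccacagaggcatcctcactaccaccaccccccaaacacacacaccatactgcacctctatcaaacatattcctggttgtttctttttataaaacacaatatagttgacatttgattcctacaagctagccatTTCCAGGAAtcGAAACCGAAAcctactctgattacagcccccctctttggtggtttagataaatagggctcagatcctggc
Irf1, the first of 2 windows, chr11:53769764-53770013, plus strand: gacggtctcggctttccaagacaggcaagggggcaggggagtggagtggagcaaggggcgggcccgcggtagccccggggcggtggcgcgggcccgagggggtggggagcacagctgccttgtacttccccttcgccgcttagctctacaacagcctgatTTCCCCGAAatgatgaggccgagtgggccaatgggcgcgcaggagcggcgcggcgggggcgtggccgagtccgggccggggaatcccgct

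The 4 GTPase promoters held both motifs, close to each other. In Irgm2 the IRF motif began 64 and the STAT motif 75 bases before the start site, in Igtp 34 and 45 bases, and in Tgtp2 70 and 81 bases. The Irgm2 window lies inside the gene model annotated for it, so its positions refer to the RefSeq start site only. The Irgm2 and Igtp windows share a run of 55 identical bases, so their motif layouts are not independent cases. Gm12250 held the IRF motif at 91 and 46 bases and the STAT motif at 61 bases. The Irf1 window held the STAT motif only, at 90 bases. Of its 2 windows, the one shown came first when sorted by the number of STAT and then IRF matches. Its STAT match is thus partly given by this choice. Of the 23 GBP and IRG genes 13 matched the promoter table, of which 12 (92.3%) held the IRF motif, 8 (61.5%) the STAT motif and 8 both. Over the 27025 genes with a promoter these shares were 3.46%, 8.13% and 0.459%. Among the genes with an unadjusted p under 0.05 that had a promoter, the IRF motif was in 6.38% of 517 genes with a lower response in Aim2-/- mice. It was in 2.65% of 264 genes with a higher response, and both motifs were in 2.32% and 0%. Over the genes tested that had a promoter, the shares were 3.33% for the IRF motif and 0.453% for both. The GBP and IRG genes were not taken out of the lower set, so its shares are not separate from those of that list. A match of letters does not show that a factor was bound in these cells.

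Irgm2 (ENSMUSG00000069874; chromosome 11, 58199618 to 58222782), a regulator of the other IRG proteins, had the lowest p of all genes. At 0 h its level was 123, 145 and 172 CPM in WT and 141, 199.7 and 185 CPM in Aim2-/- mice. At 3 h it was 341, 443 and 557 CPM in WT and 259, 315 and 277 CPM in Aim2-/- mice. The 0 h levels of the genotypes overlapped, while at 3 h every WT mouse lay above every Aim2-/- mouse. Irgm2 rose 3.02-fold in WT and 1.63-fold in Aim2-/- cells, a difference of -0.89 (SE 0.12, adjusted p 0.0873) on the log2 scale. Over the 17 alternative settings the difference lay between -1.01 and -0.83, and 9 of them gave an adjusted p under 0.05 (range 4.5e-08 to 1.000). Igtp (ENSMUSG00000078853; chromosome 11, 58199556 to 58207591), which encodes the related GTPase Irgm3, went from 269, 266 and 314 CPM to 1042, 1248 and 1516 CPM in WT and from 302, 394 and 406 CPM to 759, 1059.6 and 1118 CPM in Aim2-/- mice. At 3 h the mouse labelled WT 1 lay among the Aim2-/- mice for Igtp, and the other WT mice above them all. The Igtp difference was -0.75 (SE 0.12, adjusted p 0.130). The annotated models of Irgm2 and Igtp overlap, and how reads in their shared stretch were assigned is not given in the sources used here, so the counts of both are uncertain to that extent.

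Gm12250 (ENSMUSG00000082292; chromosome 11, 58187739 to 58189012) encodes the GTPase Irgb10, which acts on bacterial and vacuolar membranes. The annotation used here lists this identifier as a processed pseudogene. The promoter window shown above ends at 58183842, apart from this gene model, so its motif positions refer to the RefSeq start site only. Gm12250 started from 13.7, 11.1 and 16.3 CPM in WT and 22.5, 21.3 and 24.6 CPM in Aim2-/- mice, with every Aim2-/- mouse above every WT mouse. After 3 h it stood at 164, 196 and 315 and 122, 183 and 122 CPM, and the order of the genotypes overlapped. The rise was 16.1-fold against 6.12-fold, and the difference -1.39 (SE 0.22, adjusted p 0.128). Iigp1 (Irga6) had 0 h levels of 40.5, 20.8 and 29.9 CPM in WT and 49.5, 58.4 and 62.8 CPM in Aim2-/- mice and 3 h levels of 495, 478 and 844 and 426, 637 and 568 CPM. Its Aim2-/- levels were the higher ones at 0 h without overlap, and the difference in response was -1.07 (SE 0.24, adjusted p 0.288), or -1.39 without the mouse labelled WT 1. Tgtp2 (-0.87, SE 0.15, adjusted p 0.130) and Tgtp1 (-0.85, SE 0.20, adjusted p 0.328), which encode Irgb6, are near-identical copies, so the reads assigned to each are uncertain. Tgtp2 went from 17.6, 14.7 and 22.2 to 70.03, 75.6 and 95.5 CPM in WT and from 21.5, 25.3 and 24.6 to 52.2, 72.1 and 50.7 CPM in Aim2-/- mice.

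**Figure D3:**
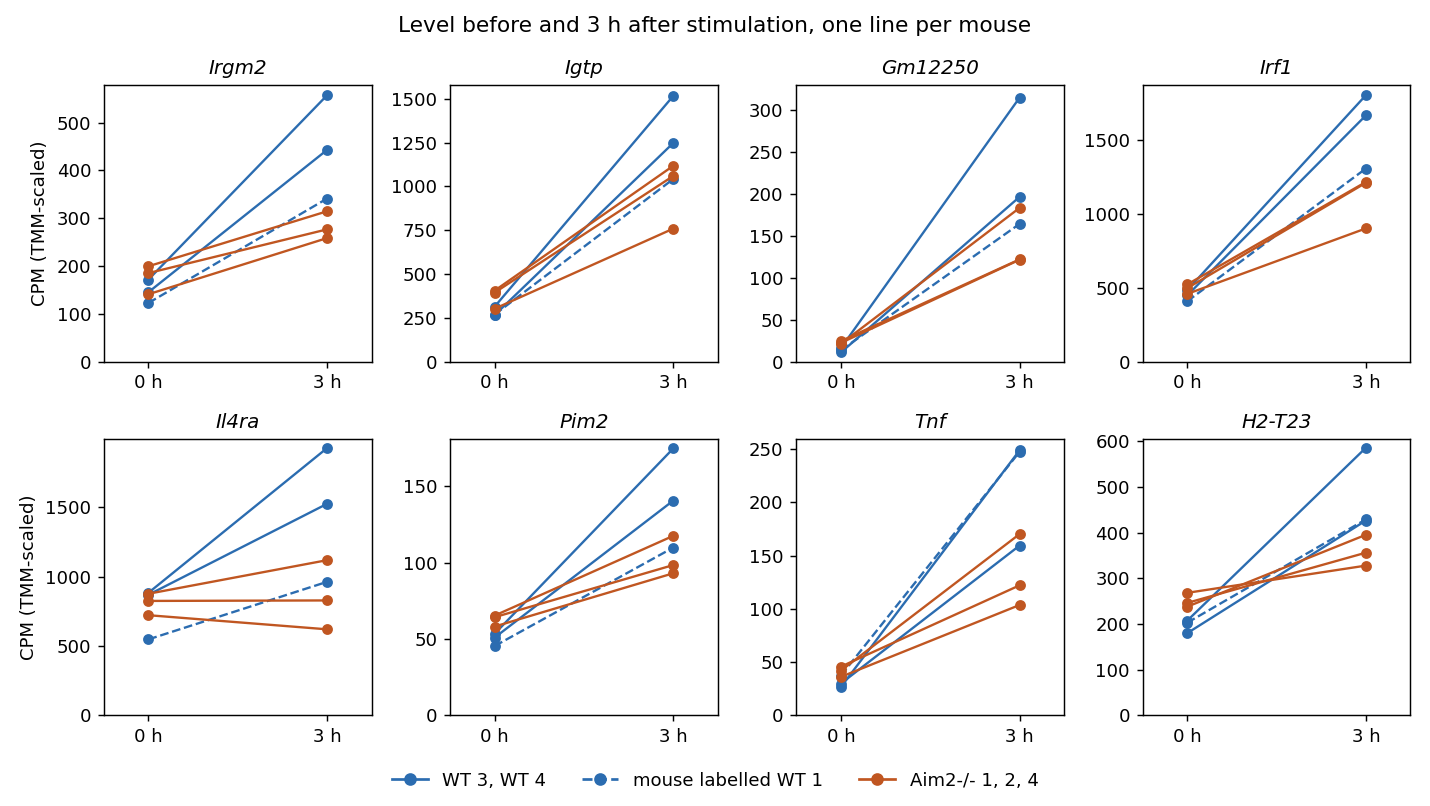
Level in CPM (vertical axes, from 0) at 0 h and 3 h of 8 genes with a lower 3 h response in Aim2-/- mice, with a line for each of the 6 mice. The mean rise of the 3 Aim2-/- mice (orange) is smaller than that of the 3 mice labelled WT (blue, dashed for WT 1) for Irgm2, Igtp, Gm12250, Irf1, Il4ra, Pim2, Tnf and H2-T23.

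Transcription factors of the interferon pathway lay on the same side. Of 12 interferon regulatory factors, 4 had an unadjusted p under 0.05 (33.3%, against 5.12% of all genes), all lower in Aim2-/- mice, with a median difference of -0.22, or -0.07 without the mouse labelled WT 1. Irf1 (ENSMUSG00000018899; chromosome 11, 53770014 to 53778374), the activator of interferon gamma targets, rose from 409, 448 and 484 CPM to 1306, 1665 and 1802 CPM in WT mice and from 459, 497 and 523 CPM to 901, 1209.8 and 1215 CPM in Aim2-/- mice. Its 0 h levels overlapped, and at 3 h all WT mice lay above all Aim2-/- mice. The Irf1 difference was -0.66 (SE 0.12, adjusted p 0.158). Irf7, the master factor of type I interferon genes, differed by -0.70 (SE 0.18, adjusted p 0.392), Irf8, a partner of IRF1 and also a marker of dendritic cells, by -1.27 (SE 0.38, adjusted p 0.452), and Irf9, the DNA-binding subunit of the factor that type I interferon activates, by -0.34 (SE 0.12, adjusted p 0.509).

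Among 46 type I interferon-stimulated genes, 38 rose in WT and 37 in Aim2-/- cells. An unadjusted p under 0.05 was found for 13 with a lower and 0 with a higher response in Aim2-/- mice, and the median difference was -0.31. The mouse medians were 0.85, 1.08 and 1.44 log2 units for the WT mice, against 0.66, 1.14 and 0.94 for the Aim2-/- mice, which overlap, and the median difference was -0.48 without the mouse labelled WT 1 and -0.08 without mouse WT 4. Usp18, a protease that removes ISG15 and restrains the type I receptor, rose from 9.10, 7.36 and 12.8 to 65.99, 72.4 and 156 CPM in WT and from 7.80, 12.2 and 11.1 to 51.2, 73.1 and 62.4 CPM in Aim2-/- mice, a difference of -0.67 (SE 0.18, adjusted p 0.420) in which mouse WT 4 stood highest. Oas1b, listed in the annotation as a polymorphic pseudogene, is of the family that senses double-stranded RNA. Its level went from 11.4, 11.7 and 9.21 to 31.5, 45.3 and 53.99 CPM in WT mice. In Aim2-/- mice it went from 8.43, 10.8 and 9.53 to 21.2, 23.7 and 22.2 CPM. Its difference was -0.77 (SE 0.23, adjusted p 0.452), with no overlap of the genotypes at 3 h. Isg15, a ubiquitin-like protein, differed by -0.61 (SE 0.19, adjusted p 0.465).

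Genes of MHC class I and its peptide supply showed smaller differences. Of 23 genes, 14 rose in WT and 11 in Aim2-/- cells, 8 had an unadjusted p under 0.05 with a lower response in Aim2-/- mice and 0 with a higher one, and the median difference was -0.23. H2-T23 (ENSMUSG00000067212; chromosome 17, 36029773 to 36032855), the non-classical molecule Qa-1, rose from 203, 179.9 and 207 to 429, 427 and 586 CPM in WT and from 268, 238 and 246 to 328, 395 and 356 CPM in Aim2-/- mice. The Aim2-/- levels of H2-T23 were higher without overlap at 0 h and lower without overlap at 3 h, and the difference was -0.76 (SE 0.14, adjusted p 0.158). The immunoproteasome subunits Psmb9 and Psmb8 differed by -0.52 (SE 0.12, adjusted p 0.288) and -0.37 (SE 0.12, adjusted p 0.483), and the proteasome activator Psme1 by -0.32 (SE 0.11, adjusted p 0.494). Tapbpl, a peptide editor related to tapasin, differed by -0.49 (SE 0.14, adjusted p 0.440), and was called in neither genotype.

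Cytokine receptor signalling was mixed. Of 40 JAK-STAT and cytokine receptor genes, 13 had an unadjusted p under 0.05 with a lower and 1 with a higher response in Aim2-/- mice, and the median difference was -0.12. Il4ra (ENSMUSG00000030748; chromosome 7, 125552120 to 125579474), the chain shared by the receptors for IL-4 and IL-13, had 548, 869.7 and 884 CPM at 0 h and 963, 1526 and 1928 CPM at 3 h in WT mice. In Aim2-/- mice it had 723, 877 and 826 CPM at 0 h and 621, 1119.5 and 829 CPM at 3 h. Il4ra was higher at 3 h in all 3 WT mice, the mouse labelled WT 1 starting lower, while of the Aim2-/- mice 1 was higher, 1 lower and 1 nearly level. The response was 0.92 (adjusted p 2.6e-05) in WT and 0.05 (adjusted p 0.758) in Aim2-/- cells, and the difference -0.87 (SE 0.15, adjusted p 0.130). Pim2 (ENSMUSG00000031155; chromosome X, 7878262 to 7883432), a kinase induced by cytokines through STAT5, rose from 45.4, 50.9 and 53.4 to 109.9, 141 and 175 CPM in WT and from 58.2, 65.3 and 64.3 to 93.04, 118 and 98.4 CPM in Aim2-/- mice. Its 0 h levels were higher in every Aim2-/- mouse, the 3 h levels overlapped, and the difference was -0.77 (SE 0.13, adjusted p 0.130).

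The suppressors of cytokine signalling behaved alike in sign. Socs1, which blocks JAK1 and JAK2, rose from 19.8, 21.2 and 17.2 to 322, 441 and 384 CPM in WT and from 44.1, 30.7 and 32.4 to 225, 329 and 359 CPM in Aim2-/- mice. The starting level was higher in every Aim2-/- mouse, the 3 h levels overlapped, and the difference was -1.21 (SE 0.25, adjusted p 0.217). Socs3 was 0.06 in WT (adjusted p 0.679) and fell by 0.55 in Aim2-/- cells (adjusted p 0.00155), a difference of -0.61 (SE 0.15, adjusted p 0.380). Il21r, the IL-21 receptor, fell in both genotypes and differed by -0.52 (SE 0.12, adjusted p 0.321). Il7r, the receptor for the survival cytokine IL-7, was the gene on the higher side: it fell from 969, 891 and 966 to 310.4, 317 and 393 CPM in WT and from 478, 734 and 629 to 284, 388 and 253 CPM in Aim2-/- mice, with a difference of 0.48 (SE 0.15, adjusted p 0.465). All WT mice had more Il7r than all Aim2-/- mice at 0 h.

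Most T helper cytokine genes rose in both genotypes. Of 29 genes 26 were tested, 18 rose in WT and 17 in Aim2-/- cells, 10 had an unadjusted p under 0.05 with a lower response in Aim2-/- mice and 0 with a higher one, and the responses of 5 did not overlap. Of all genes tested 5.12% were lower at this p and 7.87% lower without overlap. The median response was 1.61 log2 units in WT and 1.10 in Aim2-/- cells, with a median difference of -0.37 (-0.15 with the myeloid score in the model). Mouse medians were 1.51, 1.68 and 1.36 for the WT mice, against 0.76, 1.00 and 1.23 for the Aim2-/- mice. Tnf (ENSMUSG00000024401; chromosome 17, 35199381 to 35202007), the inflammatory cytokine TNF, rose from 37.4, 26.6 and 29.9 to 247, 249 and 159 CPM in WT and from 45.8, 36.1 and 41.98 to 122, 104 and 170.2 CPM in Aim2-/- mice. The levels overlapped at both times, at 3 h through mouse WT 4, and the rise was 6.90-fold against 3.14-fold (difference -1.13, SE 0.20, adjusted p 0.130).

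Il4, the cytokine of the Th2 lineage, rose from 3.90, 3.71 and 4.98 to 47.4, 70.03 and 102 CPM in WT and from 10.6, 4.83 and 5.80 to 60.5, 30.2 and 59.1 CPM in Aim2-/- mice, a difference of -1.25 (SE 0.24, adjusted p 0.160). Its levels overlapped at both times. Il4 is also made by basophils and mast cells. Their 10 listed markers summed to 43.4 to 46.96 CPM in WT and 106 to 224 CPM in Aim2-/- libraries at 0 h. At 3 h they summed to 98.5 to 146 and 126 to 315 CPM. Il4 is itself one of these 10 markers, so the 3 h sums contain its own rise and are not separate from it. The part of these cells was not tested. Il17a, the Th17 cytokine, had under 1 CPM in all 6 libraries of 0 h. It reached 12.4, 5.46 and 4.36 CPM in WT and 7.62, 1.80 and 8.37 CPM in Aim2-/- mice, overlapping levels with a difference of -1.45 (SE 0.58, adjusted p 0.596), or -0.74 without the mouse labelled WT 1. Csf1, a growth factor of macrophages, differed by -0.78 (SE 0.24, adjusted p 0.459). The growth factor Areg differed by -0.58 (SE 0.18, adjusted p 0.459), falling in Aim2-/- cells and giving -0.22 in WT (adjusted p 0.180), and Tnfsf8, the CD30 ligand, differed by -0.65 (SE 0.20, adjusted p 0.459). Il2, the main growth factor of T cells, rose from 1.85, 1.34 and 1.56 to 27.2, 16.1 and 11.96 CPM in WT and from 3.10, 1.82 and 2.66 to 17.7, 14.02 and 27.6 CPM in Aim2-/- mice, and its difference of -0.55 (-0.28 without the mouse labelled WT 1) had an unadjusted p of 0.0856 and an adjusted p of 0.692.

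Immediate early genes had the next lowest median. All 25 were tested, 24 had a lower fitted response in Aim2-/- mice, 14 had an unadjusted p under 0.05 on that side (56%) and 0 on the other, and 10 did not overlap between the genotypes. The shares over all genes were 5.12% for the lower side and 7.87% for lower responses without overlap. In WT cells 13 rose and 8 fell, and in Aim2-/- cells 8 rose and 11 fell. The median response was 0.34 in WT and -0.09 in Aim2-/- cells, and the median difference -0.52 (-0.34 with the B cell score and -0.32 with the myeloid score in the model). By mouse the medians were 0.48, 0.56 and 0.07 for the WT mice, against -0.38, -0.14 and 0.11 for the Aim2-/- mice, where mouse Aim2-/- 4 lay above mouse WT 4.

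Fos, a subunit of AP-1, had 75.7, 89.6 and 87.1 CPM at 0 h and 76.04, 85.7 and 72.2 CPM at 3 h in WT mice. In Aim2-/- mice it had 120.3, 95.1 and 105 CPM at 0 h and 60.2, 65.1 and 60.1 CPM at 3 h. Every Aim2-/- mouse lay above every WT mouse at 0 h and below every WT mouse at 3 h. Fos gave -0.11 in WT (adjusted p 0.377) and fell by 0.78 in Aim2-/- cells (adjusted p 4.4e-05), a difference of -0.67 (SE 0.13, adjusted p 0.192). Maff, a small Maf factor, ran the same way, with -0.09 in WT (adjusted p 0.428), -0.74 in Aim2-/- cells (adjusted p 3.1e-05) and a difference of -0.65 (SE 0.12, adjusted p 0.158). Fosb and Junb, further AP-1 subunits, fell in both genotypes and differed by -0.45 (SE 0.11, adjusted p 0.335) and -0.58 (SE 0.15, adjusted p 0.422). Srf, the factor that drives many immediate early genes, rose in both genotypes (difference -0.52, SE 0.15, adjusted p 0.440), and Ier2 differed by -0.59 (SE 0.17, adjusted p 0.440). Egr2, induced by NFAT and MAP kinase signals, rose in both genotypes, and its difference of -0.46 had an adjusted p of 0.692.

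Further signalling lists of T cell receptor stimulation stood closer to the median of all genes. Of 24 MAP kinase feedback genes, 4 had an unadjusted p under 0.05, all lower in Aim2-/- mice (16.7%, median difference -0.21), among them Spry1, an inhibitor of Ras signalling (-0.77, SE 0.25, adjusted p 0.474), and Dusp14, a MAP kinase phosphatase (-0.41, SE 0.16, adjusted p 0.573, and -0.24 without the mouse labelled WT 1). Gadd45b, a stress-induced activator of p38, went from 195, 199.6 and 223 to 231, 229.9 and 207 CPM in WT and from 339, 259.9 and 312 to 220.3, 175 and 235 CPM in Aim2-/- mice (difference -0.65, SE 0.12, adjusted p 0.158). Of 28 NF-kB genes 4 did (14.3%, median -0.13), with Tnf and the adhesion molecule gene Icam1 (-0.54, SE 0.14, adjusted p 0.420) among them. Nfkbia, the inhibitor of NF-kB that NF-kB induces, differed by -0.22 (SE 0.11, adjusted p 0.647). For 23 of 24 calcium and NFAT genes that were tested, 1 was lower and 3 were higher, with a median of 0.04, or 0.0064 without the mouse labelled WT 1. The calcium channel gene Orai2 fell in both genotypes and differed by 0.36 (SE 0.11, adjusted p 0.459), whereas Orai1, its relative, differed by -0.44 (SE 0.18, adjusted p 0.596) and Itpr1, the IP3 receptor, by 0.39 (SE 0.12, adjusted p 0.470). Of 38 PI3K, AKT and mTOR genes 2 were lower and 2 higher, close to the shares of 5.12% and 2.72% over all genes (median -0.02, or -0.01 without the mouse labelled WT 1). Ddit4, an mTOR inhibitor of stress, fell in both genotypes with a difference of -0.66 (SE 0.16, adjusted p 0.335), and Sesn1, another stress inhibitor of mTOR, fell in both with 0.35 (SE 0.13, adjusted p 0.532). Pik3r1, the regulatory subunit of PI3K, differed by 0.28 (SE 0.12, adjusted p 0.608).

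**Figure D4:**
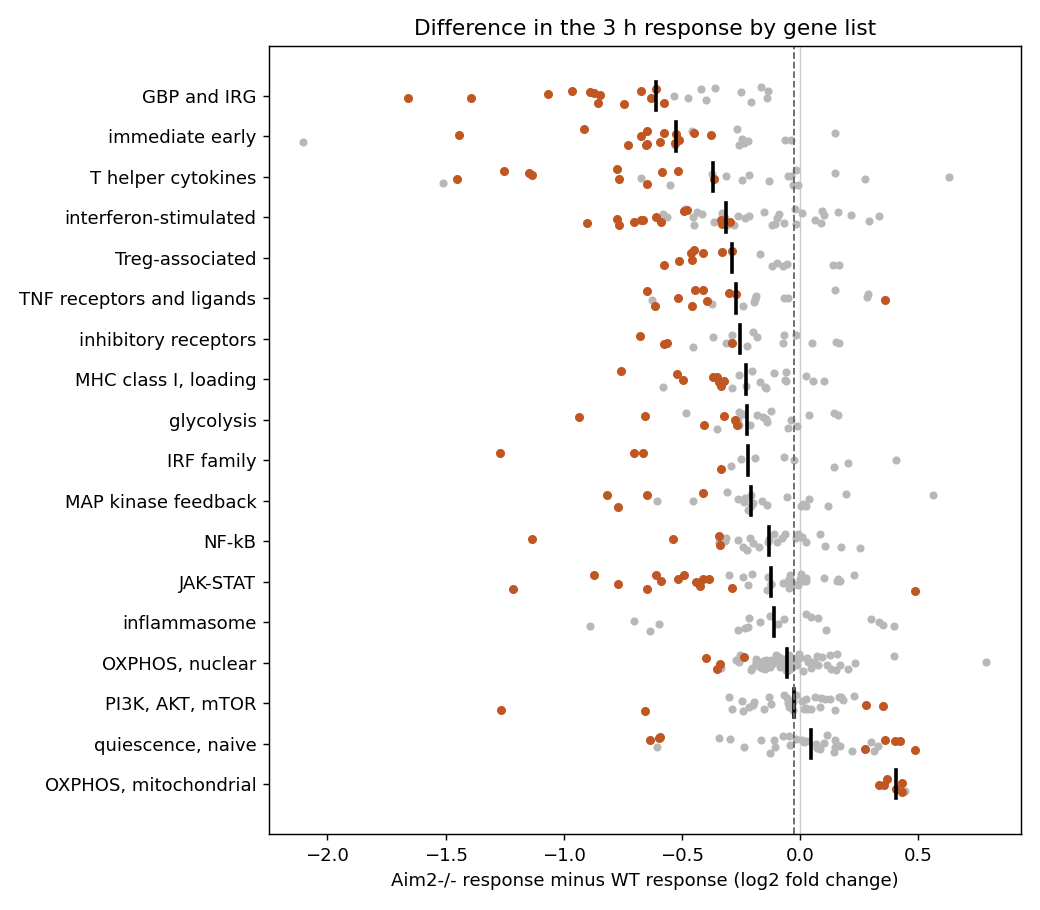
Difference in the 3 h response (Aim2-/- minus WT, log2 fold change, horizontal axis) of each gene tested in 18 lists, with genes of unadjusted p under 0.05 in orange, the median of a list as a bar and the median of all genes as a dashed line. The medians run from -0.61 for GBP and IRG genes to 0.41 for mitochondrially encoded genes of oxidative phosphorylation.

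Genes of costimulation, regulation and T helper identity lay mostly on the lower side in their response, which does not mean a lower level. Of the 15 Treg-associated genes, which are Foxp3 and the signature genes that the study names, 8 had an unadjusted p under 0.05 with a lower response in Aim2-/- mice and 0 with a higher one (median -0.29). Their summed level was higher in every Aim2-/- mouse than in every WT mouse at both times. It was 1979 to 2812 CPM in WT and 3442 to 4593 CPM in Aim2-/- libraries at 0 h. At 3 h it was 2885 to 3557 and 3764 to 4466 CPM. Foxp3, the lineage factor of regulatory T cells, rose from 112, 84.7 and 116 to 258, 214 and 337 CPM in WT and from 171, 140.1 and 133 to 321, 289 and 293 CPM in Aim2-/- mice. The Aim2-/- level was higher without overlap at 0 h, the levels overlapped at 3 h, and the difference was -0.33 (SE 0.12, adjusted p 0.545). Pdcd1, the inhibitory receptor PD-1, rose from 268, 140.2 and 179 to 383, 213 and 211 CPM in WT, while in Aim2-/- mice it had 490.3, 382 and 334 CPM at 0 h and 449, 349 and 309 CPM at 3 h. Every Aim2-/- mouse lay above every WT mouse at 0 h, and its difference was -0.58 (SE 0.12, adjusted p 0.217). The actin regulator Capg differed by -0.51 (SE 0.13, adjusted p 0.357), the costimulatory receptors Tnfrsf4 (OX40) and Tnfrsf9 (4-1BB) by -0.41 (SE 0.12, adjusted p 0.451) and -0.46 (SE 0.16, adjusted p 0.489), and the opioid precursor Penk by -0.45 (SE 0.14, adjusted p 0.465). Il2ra, the IL-2 receptor alpha chain, rose in both genotypes by 2.44 and 2.38, a difference of -0.06 (SE 0.19, adjusted p 0.955), or -0.09 without the mouse labelled WT 1.

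Of 21 costimulatory TNF receptors and ligands tested, of 22 listed, 9 were lower and 1 was higher at an unadjusted p under 0.05 (median -0.27). Of 18 inhibitory receptors and ligands 4 were lower and 0 higher (median -0.26). Lag3, a receptor for MHC class II, fell in both genotypes, from 75.5, 17.7 and 18.97 to 67.4, 13.2 and 14.4 CPM in WT and from 136, 87.9 and 71.3 to 67.7, 47.8 and 42.6 CPM in Aim2-/- mice. For Lag3 the mouse labelled WT 1 lay near the Aim2-/- mice at both times, and the difference was -0.56 (SE 0.13, adjusted p 0.288). Cd274, the ligand PD-L1 and a target of IRF1, rose in both and differed by -0.68 (SE 0.21, adjusted p 0.465), and Tigit differed by -0.29 (SE 0.11, adjusted p 0.575) with a call in neither. Of 28 T helper transcription factors, 6 were lower and 0 higher (median -0.21). Among these Batf, the AP-1 factor of Th17 and effector cells, differed by -0.56 (SE 0.12, adjusted p 0.275), Tbx21, the Th1 factor T-bet, by -1.12 (SE 0.35, adjusted p 0.459), and Gata3, the Th2 factor, by -0.28 (SE 0.12, adjusted p 0.625), and each of them rose in both genotypes. Cd69, an early activation marker, rose in both genotypes with a difference of -0.15 (SE 0.21, adjusted p 0.891), or -0.31 without the mouse labelled WT 1.

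Among metabolic genes, glycolysis genes lay on the lower side and mitochondrially encoded genes on the higher side. Of 24 glycolysis genes 11 rose in WT and 7 in Aim2-/- cells, 6 had an unadjusted p under 0.05 with a lower response in Aim2-/- mice and 0 with a higher one, and the median difference was -0.23. Eno1 (enolase) went from 52.6, 52.8 and 57.5 to 88.8, 96.2 and 117 CPM in WT and from 62.9, 66.9 and 68.9 to 76.2, 86.8 and 70.3 CPM in Aim2-/- mice. It lay higher in all Aim2-/- mice at 0 h and lower in all of them at 3 h (difference -0.65, SE 0.13, adjusted p 0.160). Aldoa (aldolase) differed by -0.41 (SE 0.13, adjusted p 0.465) and Pkm (pyruvate kinase) by -0.27 (SE 0.12, adjusted p 0.615), the latter by -0.17 without the mouse labelled WT 1. Gapdh differed by -0.94 (SE 0.22, adjusted p 0.328), but its count is uncertain, since many pseudogene copies share its reads. Myc, which drives growth and glycolysis, rose from 79.98, 76.2 and 76.4 to 442, 582 and 410.5 CPM in WT and from 89.2, 88.2 and 93.6 to 234, 413 and 442 CPM in Aim2-/- mice, with overlap at 3 h and a difference of -0.65 (SE 0.21, adjusted p 0.474). Of 11 MYC network genes tested, of 12 listed, 3 were lower, among them the antagonist Mxd1 (-0.49, SE 0.16, adjusted p 0.474), and the median of -0.09 turned to 0.02 without the mouse labelled WT 1.

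The 77 nuclear genes of oxidative phosphorylation had a median difference of -0.06, which changed sign in 4 alternative settings and was 0.03 without the mouse labelled WT 1. An unadjusted p under 0.05 was reached by 4 of them, all lower, a share close to the 5.12% of all genes. These include the complex I subunit Ndufb6 (-0.40, SE 0.14, adjusted p 0.535) and the ATP synthase subunit Atp5d (-0.35, SE 0.14, adjusted p 0.599), the latter with -0.17 without the mouse labelled WT 1. The mitochondrially encoded genes lay on the other side. Of 13 such genes 7 were tested, and the other 6 were not kept by the filter on counts. Whether this came from their level or from how reads were assigned was not tested. Of the 7 genes, 6 fell in WT and 0 in Aim2-/- cells, 6 had an unadjusted p under 0.05 with a higher response in Aim2-/- mice (85.7%, against 2.72% of all genes), and 6 did not overlap (background 5.67%). The median response was -0.53 in WT and -0.10 in Aim2-/- cells, a median difference of 0.41 that ranged from 0.28 to 0.48 over the alternatives. By mouse the medians were -0.47, -0.75 and -0.42 for the WT mice, against -0.21, -0.13 and 0.04 for the Aim2-/- mice, without overlap.

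Mitochondrial transcripts come from long shared precursors, so these genes are not independent of each other. The complex I subunit gene mt-Nd1 had 2350.4, 2638 and 1977 CPM at 0 h and 1695, 1678 and 1438 CPM at 3 h in WT mice. In Aim2-/- mice mt-Nd1 had 2110.3, 1771 and 2658 CPM at 0 h and 1822, 1624 and 2741 CPM at 3 h. Its levels overlapped at both times, and it was lower at 3 h than at 0 h in 3 of 3 WT mice and in 2 of 3 Aim2-/- mice. The difference of mt-Nd1 was 0.43 (SE 0.12, adjusted p 0.435). Those of mt-Nd5, mt-Co1 (complex IV) and mt-Cytb (complex III) were 0.43, 0.36 and 0.34, with adjusted p of 0.437, 0.519 and 0.573. The mitochondrial 16S ribosomal RNA, mt-Rnr2, fell in both genotypes and differed by 0.52 (SE 0.14, adjusted p 0.420).

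The genes with a higher response in Aim2-/- mice were mostly genes that stimulation lowers. Among the 12 leading genes on this side, 11 fell in WT and 10 in Aim2-/- cells. Mctp2, which encodes a C2 domain membrane protein, fell from 47.9, 48.7 and 56.5 to 10.6, 12.2 and 13.4 CPM in WT and from 26.2, 39.6 and 28.7 to 10.04, 14.3 and 10.4 CPM in Aim2-/- mice. The genotypes did not overlap at 0 h, where WT was higher, and overlapped at 3 h, with a difference of 0.64 (SE 0.13, adjusted p 0.217). Tent5c, a poly(A) polymerase, fell from 368, 363 and 367 to 123, 120.3 and 135 CPM in WT and from 224, 303 and 259 to 144, 163 and 116 CPM in Aim2-/- mice (difference 0.65, SE 0.13, adjusted p 0.217). Bcl9l, a cofactor of beta-catenin, fell from 235, 229 and 251 to 71.2, 63.5 and 76.96 CPM and from 116, 189.8 and 137 to 63.3, 73.5 and 57.6 CPM (difference 0.59, SE 0.13, adjusted p 0.288). For Tent5c and Bcl9l, too, WT was higher at 0 h without overlap and the levels overlapped at 3 h.

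For Tmcc3 and mt-Rnr2 the 0 h levels overlapped and the 3 h levels did not. Tmcc3 fell from 11.8, 9.83 and 12.9 to 3.76, 3.24 and 2.58 CPM in WT and from 12.6, 12.7 and 11.5 to 7.37, 6.06 and 5.83 CPM in Aim2-/- mice, a difference of 0.91 (SE 0.23, adjusted p 0.358). The others included Fam69a (0.80, SE 0.19, adjusted p 0.328), the Golgi protein gene Golm1 (0.74, SE 0.18, adjusted p 0.328), Ugcg, the glucosylceramide synthase (0.48, SE 0.12, adjusted p 0.420), Zadh2 (0.50, SE 0.13, adjusted p 0.420), mt-Rnr2, Ipcef1 and Fundc1. Ipcef1, a partner of cytohesins, fell in WT cells (-0.49, adjusted p 0.000802) and gave 0.07 in Aim2-/- cells (adjusted p 0.550). Fundc1, a mitophagy receptor, gave -0.20 in WT (adjusted p 0.109) and rose by 0.31 in Aim2-/- cells (adjusted p 0.0224).

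**Figure D5:**
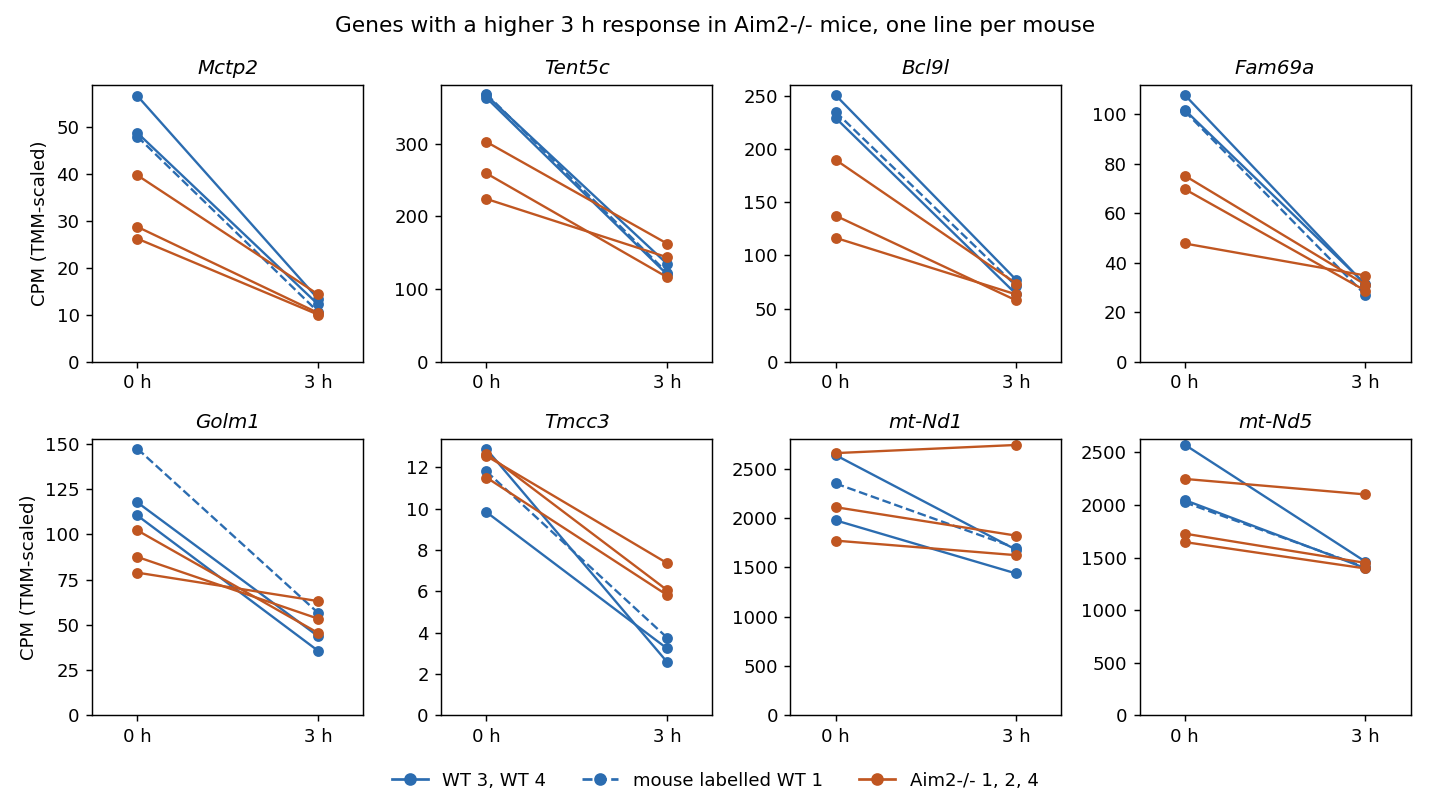
Level in CPM (vertical axes, from 0) at 0 h and 3 h of 8 genes with a higher 3 h response in Aim2-/- mice, with a line for each of the 6 mice. Mctp2, Tent5c, Bcl9l, Fam69a and Golm1 start lower in every Aim2-/- mouse (orange) and meet the mice labelled WT (blue, dashed for WT 1) at 3 h, Tmcc3 parts at 3 h, and mt-Nd1 and mt-Nd5 overlap at both times.

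Of 38 quiescence and naive T cell genes, 27 fell in each genotype, 3 had a lower and 5 a higher response in Aim2-/- mice at an unadjusted p under 0.05, and the median difference was 0.05. Klf2, which keeps T cells quiescent and circulating, fell from 686, 787 and 872 to 349, 321 and 385 CPM in WT and from 486, 605 and 697 to 295, 374 and 360.4 CPM in Aim2-/- mice (difference 0.36, SE 0.12, adjusted p 0.490). Tdrp fell in both genotypes and differed by 0.42 (SE 0.14, adjusted p 0.483). Those with a lower response were Igfbp4, which binds insulin-like growth factors (-0.64, SE 0.15, adjusted p 0.328), Kbtbd11, which rose in both genotypes (-0.60, SE 0.15, adjusted p 0.380), and Tob2. Tob2, an antiproliferative gene, fell from 449, 511 and 606 to 253, 283 and 290.0 CPM in WT and from 761, 633 and 686 to 255, 236 and 238 CPM in Aim2-/- mice. It was among the 12 leading genes on the lower side (difference -0.59, SE 0.11, adjusted p 0.158), with higher levels at 0 h in every Aim2-/- mouse. Of 20 p53 target genes tested, of 22 listed, 5 were lower, among them the death receptor gene Fas (-0.44, SE 0.16, adjusted p 0.504), and 1 was higher (median -0.19, or -0.12 without the mouse labelled WT 1). Of 26 DNA methylation and chromatin genes 0 had an unadjusted p under 0.05, against 7.84% of all genes tested (median 0.05, or -0.0032 without the mouse labelled WT 1). Of 63 replication-dependent histone genes 8 were tested, and the linker histone gene Hist1h1c was higher (0.63, SE 0.21, adjusted p 0.483).

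The inflammasome genes, the known partners of AIM2, had no member at this p, which in a list of this size is close to the share over all genes. Of 20 genes tested, of 21 listed, 0 had an unadjusted p under 0.05, against 7.84% of all genes tested. None (0) had an adjusted p under 0.05. The median difference was -0.11, or -0.19 without the mouse labelled WT 1. The lowest p were those of Naip5, a flagellin sensor (0.35, unadjusted p 0.0926), Casp8, a caspase of cell death (-0.22, unadjusted p 0.126), and Pycard, the adaptor ASC (-0.26, unadjusted p 0.140). Casp8 rose in both genotypes.

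Genes of other cell types were among those with a lower response in Aim2-/- mice, and their starting levels followed the markers given above. The immunoglobulin light chain gene Igkv15-103 had 4.90, 0.927 and 1.76 CPM in WT and 24.7, 6.80 and 40.05 CPM in Aim2-/- mice at 0 h, and 14.8, 1.69 and 3.06 and 17.9, 5.09 and 17.8 CPM at 3 h. It rose in WT and fell in Aim2-/- cells, with a difference of -1.95 (SE 0.29, adjusted p 0.113) and the largest WT value in the mouse labelled WT 1. Fn1 (fibronectin), a gene of the myeloid list, fell from 7.70, 9.17 and 5.23 to 5.92, 4.45 and 3.64 CPM in WT and from 58.3, 25.7 and 25.4 to 12.6, 5.28 and 8.18 CPM in Aim2-/- mice (difference -1.39, SE 0.23, adjusted p 0.130). Of the 16 myeloid markers 4 were lower and 1, Fcgr3, was higher (1.13, SE 0.31, adjusted p 0.435), and the median of -0.44 was -0.0042 without the mouse labelled WT 1 and -0.68 without mouse WT 4. Lyz2 (lysozyme) fell in both genotypes and differed by -0.64 (SE 0.17, adjusted p 0.422), or by -0.39 without the mouse labelled WT 1. Of 15 B cell markers 2 were lower (median -0.11, or -0.05 without the mouse labelled WT 1). Igkc and Ighm differed by -0.33 (unadjusted p 0.0785) and -0.28 (unadjusted p 0.120), and by -0.099 and -0.05 without the mouse labelled WT 1. Of 11 plasma cell markers 4 were lower, among them Ighg3 (-0.50, SE 0.12, adjusted p 0.328). Their median was -0.47, or -0.23 without the mouse labelled WT 1 and -0.12 with the B cell score.

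At an unadjusted p under 0.05, the other marker lists had 2 lower of 8 dendritic cell genes tested, 3 of 10 basophil and mast cell genes, 2 of 9 NK cell genes, 1 of 11 erythroid genes, 1 of 6 platelet genes and 0 of 11 neutrophil genes, and none higher, where 5.12% of all genes tested were lower. Il4 is among the lower basophil and mast cell genes. Of 10 CD4 T cell markers 0 were lower or higher (median 0.02, or 0.16 without the mouse labelled WT 1), as were the 2 CD8 T cell markers.

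The genotypes were also compared within each time point, in a fit without the mouse as a block, for the 24 leading genes. At 0 h 5 of them differed after adjustment (264 of all genes tested, 1.85%) and at 3 h 0 of them did (30 of all genes, 0.21%). Among the 5 were Fn1, higher in Aim2-/- cells by 2.31 (adjusted p 0.0229), and Bcl9l, Fam69a and Ugcg, which were lower and differed by -0.69, -0.69 and -0.66 on the log2 scale (adjusted p 0.0465, 0.0405 and 0.0255). At an unadjusted p under 0.05, 6 of the 12 genes on the lower side differed at 0 h and 9 at 3 h, and of the 12 on the higher side 10 at 0 h and 3 at 3 h. Since these genes were chosen for a difference that holds both times, the counts describe them and are no independent result. Irgm2 differed between the genotypes by 0.26 at 0 h and -0.66 at 3 h (adjusted p 0.414 and 0.179).

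In the fit of all 24 libraries the same difference was taken at 6 h and 24 h, always against the same 0 h libraries, so the values of the 3 times are not independent and are set side by side only. Irgm2 gave -0.87, -0.60 and -0.45 at 3, 6 and 24 h, with adjusted p of 0.0156 at 6 h and 0.0657 at 24 h. For Gm12250 the values were -1.37, -1.27 and -0.96 (adjusted p 0.00512 at 6 h and 0.0110 at 24 h), and for Irf1 -0.63, -0.30 and -0.18 (adjusted p 0.137 at 6 h and 0.413 at 24 h). Of these 3 genes only Gm12250 was past the threshold at all 3 times. Tnf gave -1.10, -1.04 and -0.51 (adjusted p 0.0127 at 6 h and 0.181 at 24 h), and mt-Nd1 0.46, 0.69 and 0.58, with adjusted p of 0.0810 at 6 h and 0.159 at 24 h.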

How the data were processed

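RNA of 12 libraries of mouse splenic CD4+ T cells was compared: WT and Aim2-/- at 0 h and 3 h, 3 mice each. The authors aligned reads with STAR to GRCm38 and deposited raw counts per gene, without normalization, for 54446 Ensembl identifiers, of which 54409 matched GENCODE vM21 and 28681 had a count in these libraries. Whether counting used the read strand is not given in the sources used here, so overlapping and antisense genes are uncertain. No value column was left unused (0).

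The filterByExpr filter (minimum count 10) kept 14276 genes. edgeR 4.0.16 (R 4.3.3) fitted TMM-scaled counts with each mouse as a block, the 3 h response in WT and its difference in Aim2-/- cells, by its quasi-likelihood F test, two-sided, with Benjamini-Hochberg adjustment over all genes, and called an adjusted p under 0.05. The fit had 4 residual degrees of freedom and a biological coefficient of variation of 9.68%. With 3 mice per genotype, an exact permutation test could not go below 0.1. The block follows the labels, by which each mouse gave both libraries. In log2 CPM (prior count 2), deviations of the 6 same-mouse pairs correlated at 0.338 to 0.629, the 12 other pairs at -0.471 to 0.0257. Genotypes within a time were compared without a block.

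The genes named were Aim2, 5 activation genes, called genes, the 12 lowest p in each direction (mean of at least 10 CPM in a group, no clone name, no overlap of responses), and up to 6 members of each list with the lowest p (at least 5 CPM), some of which are not reported here. The gene lists come from general knowledge, and members and lists were chosen with earlier results of these data known. Alternatives were the fit without a block, RLE factors, totals only, DESeq2 1.42.0, limma-voom 3.58.1, no filter, at least 1 CPM, GC and length offsets, B cell or myeloid scores as terms, all 24 libraries, and each mouse left out. The main fit was tested on simulated counts with known differences in response. It called 14% of differences of 0.5 log2 units, 50% of 0.75, 78% of 1 and 98% of 2, so smaller simulated differences were often missed. At each size 50 genes were changed, all with a mean of at least 1 CPM, and counts were drawn independently for each gene. These shares need not hold for the measured data, where differences of over 1 log2 unit did not pass either. Promoters are from RefSeq (GRCm38.p6).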

Additional observations from a re-analysis of the deposited data

Results flagged for a closer look

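For 7 of the 104 genes named in the text, the level was higher at 3 h in every mouse of a genotype and lower in every mouse of the other. The signs of the changes were thus opposite, but some changes were small and not called. In the quasi-likelihood test of the 3 h response, Pdcd1 and Tnfrsf4 had adjusted p of 0.260 and 0.318 in Aim2-/- cells. Fundc1 had 0.109 in WT cells. Over all genes tested, 110 (0.771%) were higher at 3 h in 3 WT mice and lower in 3 Aim2-/- mice, and 71 (0.497%) the reverse, so such a pattern among the genes named, which were chosen for their differences, is no separate result. The difference in response was tested for each and none passed. Higher in the WT and lower in the Aim2-/- mice were the immunoglobulin gene Igkv15-103 (difference -1.95, adjusted p 0.113), Pdcd1 (-0.58, adjusted p 0.217), Tapbpl (-0.49, adjusted p 0.440), Tnfrsf4 (-0.41, adjusted p 0.451) and Pkm (-0.27, adjusted p 0.615). Lower in the WT and higher in the Aim2-/- mice were Fundc1 (0.51, adjusted p 0.422) and Itpr1 (0.39, adjusted p 0.470). The log2 changes of Pdcd1 were 0.51, 0.61 and 0.24 for the WT mice, against -0.13, -0.13 and -0.11 for the Aim2-/- mice, and those of Fundc1 -0.23, -0.14 and -0.23, against 0.43, 0.25 and 0.25.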

How the results depend on the processing

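The number of genes called for the difference in response was 0 without the mouse as a block, with RLE factors, with library totals and with a minimum of 1 CPM. It was 41 with DESeq2 (33 lower and 8 higher in Aim2-/- mice), 1 with limma-voom (lower), 237 without the filter on low counts (179 and 58, of which 236 were among the genes tested here), 1 with GC and length offsets (lower), 9 with the B cell score (8 and 1), 20 with the myeloid score (17 and 3) and 9 with all 24 libraries (all lower). Leaving out a mouse gave 0 to 10, all lower (higher 0 to 0): 10 without the mouse labelled WT 1, 3 without WT 4 and 2 without Aim2-/- 1. The causes were not tested. Irgm2 was called in 9 of the 17 alternatives.

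Without the block, which removes the pairing of libraries by mouse, genes with an unadjusted p under 0.05 numbered 302 lower and 197 higher, and DESeq2 gave 413 lower. The number higher was 680 (843 lower) without the filter, 649 (561 lower) with GC and length offsets and 588 (656 lower) with all 24 libraries. Leaving out a mouse gave 502 to 919 lower and 242 (without WT 3) to 508 higher. Genes called for the 3 h response were 3991 in WT with the myeloid score, and 3383 and 1718 in Aim2-/- cells with the B cell and myeloid scores. Without single mice they were 4486 to 6340 and 4166 to 6396. Of the 24 leading genes, those called between genotypes at 0 h were 11 with DESeq2, 11 without the filter, 8 with GC and length offsets and 9 with all 24 libraries. With either marker score 0 were called at 0 h. These score fits between genotypes had no mouse block, so the score held the level of other cells. The marker sums did not overlap between the genotypes, so such a fit cannot tell that level from genotype. When a mouse was left out, 0 (without WT 3, WT 4 or Aim2-/- 4) to 10 (without Aim2-/- 2) were called at 0 h. At 3 h 5, 7 and 1 were called with DESeq2, without the filter and with all 24 libraries, and 0 to 5 (without WT 1) when a mouse was left out.

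Of 104 genes named in the text, all but 2 kept their direction in all 17 alternatives. Il2ra turned to 0.022 with the B cell score, 0.0056 with the myeloid score, and, without single mice, ranged from -0.19 to 0.16 (0.11 without WT 3, 0.16 without Aim2-/- 1). Cd69 ranged from -0.31 to 0.062 without single mice (0.060 without WT 3, 0.062 without Aim2-/- 1). Of 35 lists described, 10 changed the sign of their median in some alternative, among them nuclear OXPHOS, PI3K and MYC network genes. GC and length were known for 14270 of 14276 genes. With 3 mice per genotype, and the Aim2 level of 1 mouse against its label, a difference that did not pass is not shown to be absent.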
